A study of Mus musculus with 20 samples.

Results

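Long-term hematopoietic stem cells (LT-HSC) were compared with monocytes by gene expression on Affymetrix Mouse430_2 arrays. The comparison took the 2 arrays titled LT-HSC_SPKSL and the 2 arrays titled Monocyte, 4 of the 20 arrays of a series that covered 10 blood cell types. All groups came from wild-type C57Bl/6 CD45.1 mice that were female and 12 to 14 weeks old, with no treatment given for either group, and the labels record 4 pooled samples behind each array. Cells of both types were sorted by flow cytometry, 25000 to 50000 per sample, and their RNA was amplified in 2 rounds before labelling. The abbreviation SPKSL is not spelled out in the labels, and neither the tissue nor the antibodies of either sort are named there. Proteins commonly used to sort such cells, among them Kit and Itgam, may therefore owe part of their difference to the sort.

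LT-HSC sit at the top of the blood lineage: a rare, mostly resting cell that renews itself and gives rise to every mature blood cell. Their identity is held by transcription factors such as Mecom, Hoxa9, Meis1, Tal1 and Erg, and by receptors that tie them to the niche. Monocytes are short-lived phagocytes of the blood that arise from stem cells through committed myeloid progenitors under the receptor Csf1r and the transcription factor PU.1 (gene Spi1), and that carry receptors for antibodies, complement and microbial products.

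The values were log2 intensities after GCRMA, a method that subtracts background by probe sequence and summarises the probes of each probe set. Each gene was represented by 1 probe set, and 9810 of 18193 genes were tested because at least 2 of the 20 arrays lay above a log2 value of 5. A gene was called when limma's Benjamini-Hochberg adjusted p was under 0.05 and the difference was at least 1 on the log2 scale, a 2-fold change. Standard errors came from the spread within all 10 cell types, so a gene that varied in another type has a wide error here even where its 4 arrays agree. With 2 pools a group the p-values measure the spread between pools averaged over the 10 types, and the number of arrays limits the precision. The monocyte arrays differed most of all types, so this average can understate their error. Of the called genes, 981 had a standard deviation over 1 between the monocyte arrays and 246 between the LT-HSC arrays. In such bulk samples a difference in the share of cells that express a gene and a difference in its RNA per cell cannot be told apart.

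The LT-HSC arrays correlated at 0.978 over the genes tested and the monocyte arrays at 0.945, the lowest of the 10 types, against 0.614 to 0.664 between the groups. The monocyte arrays lay over 1 log2 unit apart for 2415 genes, 1678 of them higher in array 2, and the LT-HSC arrays for 1044. The monocyte arrays correlated at 0.86 to 0.903 with the 2 granulocyte arrays of the series.

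Markers of stem and progenitor cells set the LT-HSC arrays apart from the monocyte arrays. The series held no progenitor type, so LT-HSC were not told apart from progenitors. Mecom read 12.79 and 12.32 in LT-HSC against 2.46 and 2.45 in monocytes, and Fgd5, a guanine nucleotide exchange factor used as a stem cell reporter, read 11.25 and 11.63 against 2.78 and 2.74. Kit, the receptor for stem cell factor, read 10.21 and 9.25 against 2.99 and 4.02. Slamf1, the CD150 antigen, was low in every array, with 4.38 and 5.01 against 2.09 and 2.54, and Flt3, which marks progenitors more than LT-HSC, read 8.64 and 8.08 against 4.19 and 4.59. All 8 stem markers with a probe set of their own were called higher in LT-HSC. The call for Slamf1 rested on the probe set used: the difference was 2.38 with it, 0.76 with the mean of all its probe sets and 0.04 with the one chosen by the 4 arrays alone.

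The monocyte label was met only in part. Csf1r, through which the growth factor CSF1 keeps monocytes alive, read 13.95 and 13.71 in monocytes against 6.70 and 8.71 in LT-HSC. Adgre1 (F4/80), Itgam (CD11b), Cd14 and Lyz2 (lysozyme) were also called higher in monocytes, although the call for Lyz2 was lost without monocyte array 2, where the difference was -4.28 with adjusted p = 5.37e-02, and that for Cd14 in the fit of the 4 arrays alone (-5.48, adjusted p = 1.05e-01). Lyz2 is also a neutrophil granule gene. The chemokine receptors that divide classical from patrolling monocytes were near the low-signal line: Ccr2 read 5.11 and 6.07 against 4.21 and 4.72, and Cx3cr1 read 5.15 and 5.57 against 4.70 and 5.09, not called. The call for Ccr2 was lost without monocyte array 2 (-0.64, adjusted p = 6.60e-02) and without LT-HSC array 1 (-0.87, adjusted p = 5.48e-02). Fcgr1, the high-affinity antibody receptor, stayed between 2.74 and 3.08 in all 4 arrays and was not tested, and Ly6c1 was not analysed here.

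Genes of mature neutrophils were nearly as high in the monocyte arrays as in the granulocyte arrays. All 17 tested members of that list were called higher in monocytes than in LT-HSC, with a median difference of 8.99, and the list's mean level was 12.56 and 12.73 in the monocyte arrays, 13.16 and 13.13 in the granulocyte arrays, and 3.72 and 3.70 in the LT-HSC arrays. The neutrophil granule genes, made earlier in neutrophil development, had a lower mean of 8.50 and 8.81 in the monocyte arrays against 13.07 and 13.02 in the granulocyte arrays. Of the 16 tested granule genes, 11 were called higher in monocytes than in LT-HSC and 1 higher in LT-HSC. Their median difference was 5.31 towards monocytes. Members differed widely: Lcn2 read 14.13 and 14.85 in the monocyte arrays, while Mpo, the myeloperoxidase of primary granules, read 2.13 in both. The part of neutrophil RNA in the differences below was not tested, and the group is called monocytes here as its title gives it.

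Most genes tested differed between the cell types, with 5231 (53.3%) called. Of these, 3205 (32.7%) were higher in LT-HSC and 2026 (20.7%) were higher in monocytes. The arrays of the groups did not overlap for 3192 and 2020 of these genes, and they were at least 1 log2 unit apart for 2514 and 1566. Differences of 4 log2 units or more were reached by 668 genes higher in LT-HSC and by 474 higher in monocytes. More genes gave signal in LT-HSC, with 7904 and 7705 genes above a value of 5 against 7091 and 7296 in the monocyte arrays. Among the 6469 tested genes with both means above 5, 1935 were called higher in LT-HSC and 1399 in monocytes, so the larger number on the LT-HSC side was not confined to genes at low signal in monocytes. The median difference of all genes tested was 0.18 towards LT-HSC, and quantile normalization across the 20 arrays moved it to 0.02 and the share of calls that were higher in LT-HSC from 61.3% to 54.7%.

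**Figure D1:**
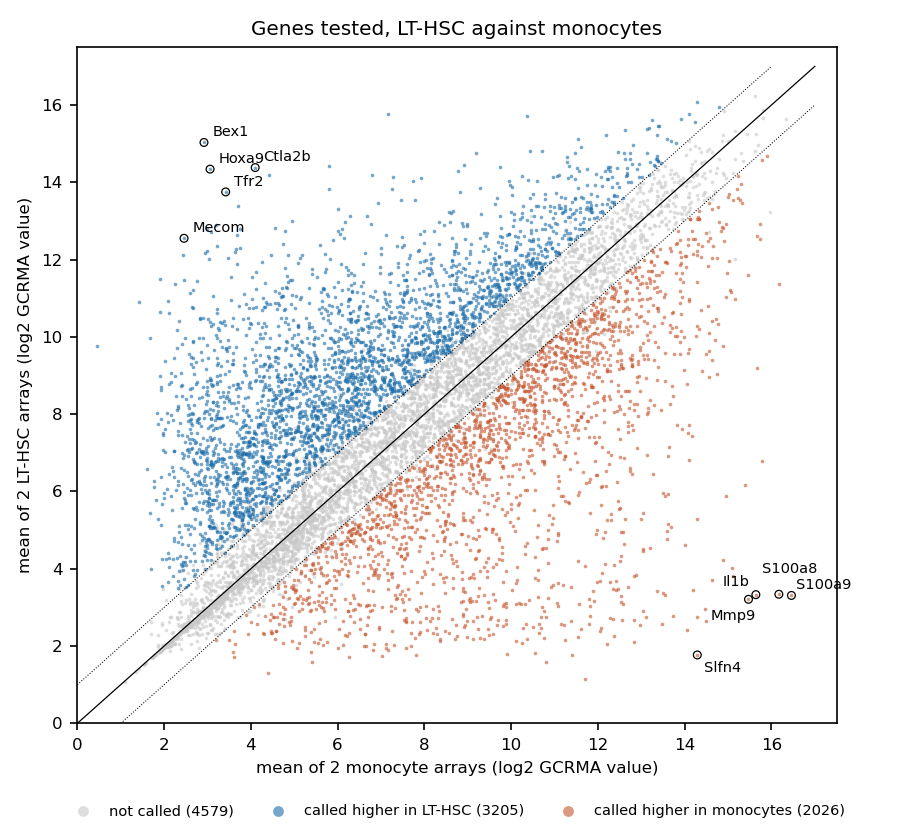
Mean log2 GCRMA value of each of the 9810 genes tested in the 2 LT-HSC arrays (vertical) against the 2 monocyte arrays (horizontal); blue points were called higher in LT-HSC (3205), orange points higher in monocytes (2026) and grey points were not called (4579). The solid line marks equal values, the dotted lines a difference of 1, and the 5 genes with the largest qualifying difference in each direction are circled and named.

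The genes with the largest differences towards LT-HSC joined stem cell regulators with genes of less known roles. Bex1, a small X-linked adaptor protein, read 14.98 and 15.08 in LT-HSC and 2.92 and 2.91 in monocytes, a difference of 12.12 ± 0.63 (SE; limma adjusted p = 2.80e-09). Hoxa9, a homeobox factor that drives stem cell expansion, read 14.51 and 14.16 against 3.08 and 3.04 (11.28 ± 0.99). Mecom (Evi1), a zinc finger factor needed for LT-HSC maintenance, differed by 10.10 ± 0.19 with an adjusted p of 3.63e-13. All 12 leading genes were at 4.77 or less in both monocyte arrays and at 10.74 or more in both LT-HSC arrays. The others were Tfr2 (transferrin receptor 2), Ctla2b, Fkbp9, the thrombin receptor F2r, Myct1, the pyrophosphatase Ppa1, Myb, the nuclear receptor Nr4a3 and the methyltransferase Smyd2, with differences of 9.46 to 10.32. Myb, a factor of dividing progenitors, was not particular to LT-HSC among the 10 types: its granulocyte mean was 11.34 and its nucleated erythrocyte mean 10.75.

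The leading genes on the monocyte side were products of phagocytes. S100a9, 1 subunit of calprotectin, read 16.56 and 16.37 in monocytes against 3.06 and 3.57 in LT-HSC, a difference of 13.15 ± 1.59 (adjusted p = 9.81e-06). Its partner S100a8 differed by 12.82 ± 1.66. Il1b, the inflammatory cytokine interleukin-1 beta, read 15.80 and 15.49 against 3.30 and 3.37, and its granulocyte mean was 11.31. The gelatinase gene Mmp9, the iron-binding lipocalin Lcn2, haptoglobin (Hp) and Slfn4 followed with differences of 11.65 to 12.52. Sirpb1a, a signal regulatory protein paired with Tyrobp, read 14.21 and 14.35 against 2.70 and 2.81, with a granulocyte mean of 12.40. The chemokine Ccl6, the protease inhibitor Stfa2l1, the lectin receptor Clec4d and Igsf6 completed the 12. Both granulocyte arrays lay above both monocyte arrays for S100a8, Mmp9, Lcn2 and Hp, and below them for Slfn4, Il1b, Sirpb1a, Ccl6, Stfa2l1 and Clec4d.

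**Figure D2:**
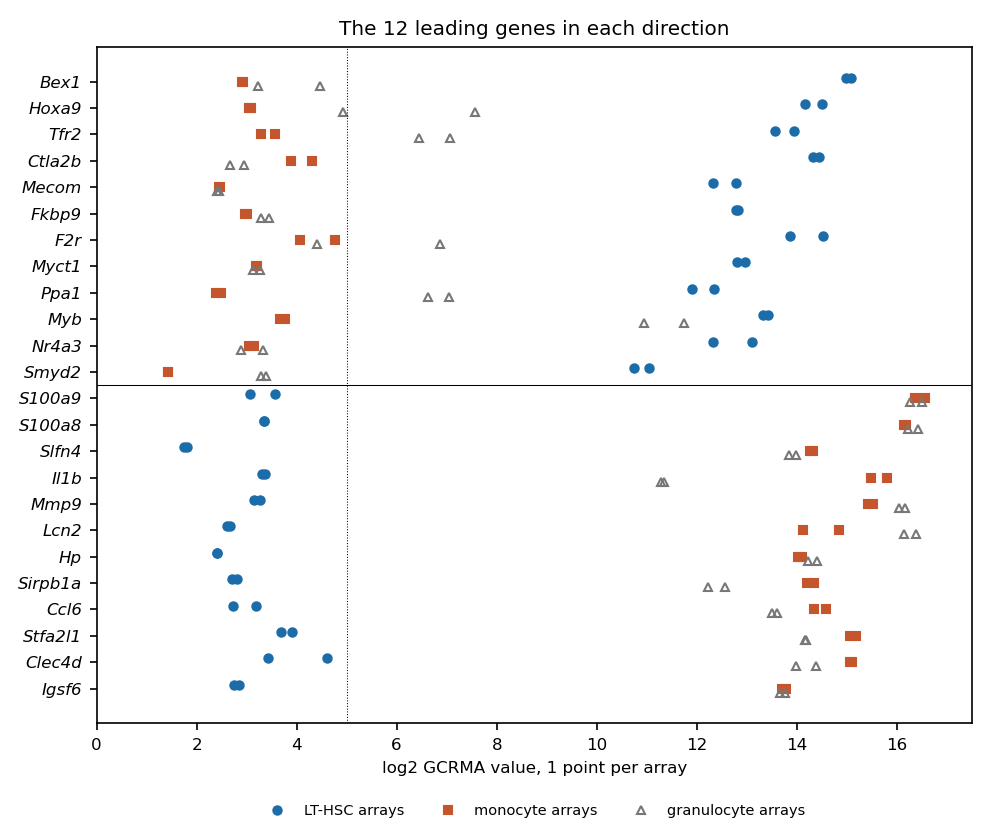
Log2 GCRMA value in each array for the 12 genes with the largest qualifying difference in each direction; circles are the 2 LT-HSC arrays, squares the 2 monocyte arrays and triangles the 2 granulocyte arrays, and the dotted line marks a value of 5. The rule that chose the 24 genes required LT-HSC and monocyte points not to overlap. The granulocyte points of the lower 12 lie at 11.28 or above.

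The stretches before the start sites of some of these genes are shown, with those of Fcgr4 and Ifit1, which were not among the 12 leading genes. The C/EBP-type motif is shown because the leading genes of the monocyte side often held it, so the choice followed the counts. Patterns for ETS, GATA, RUNX, AP-1, HOX-MEIS and NF-kB factors were searched too. The 250 bases before each listed start were read from RefSeq's promoter table (GRCm38.p6), which held 2627 of the 3205 genes higher in LT-HSC and 1640 of the 2026 higher in monocytes. C/EBP factors bind the letters TTNCNNAA in this search, PU.1 the letters GAGGAAGT and interferon regulatory factors the letters GAAANNGAA, each on both strands, where N is any base. Capitals mark C/EBP and PU.1 matches for S100a8 (chr3:90668821-90669070, plus strand) and Fcgr4 (chr1:171018676-171018925, plus strand), C/EBP matches for S100a9 (chr3:90695722-90695971, minus strand), Il1b (chr2:129371140-129371389, minus strand) and Myct1 (chr10:5593478-5593727, plus strand), and interferon regulatory factor matches for Ifit1 (chr19:34640639-34640888, plus strand). Bex1 (chrX:136215514-136215763, minus strand) held no C/EBP match and is shown in lower case throughout. Sequences run 5′ to 3′ on the strand of the gene and end at the base before the start.
S100a8: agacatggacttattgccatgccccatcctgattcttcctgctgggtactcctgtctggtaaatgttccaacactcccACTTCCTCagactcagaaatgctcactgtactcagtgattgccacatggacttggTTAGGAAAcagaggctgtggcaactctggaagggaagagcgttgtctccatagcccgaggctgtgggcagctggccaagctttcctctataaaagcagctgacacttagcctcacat
S100a9: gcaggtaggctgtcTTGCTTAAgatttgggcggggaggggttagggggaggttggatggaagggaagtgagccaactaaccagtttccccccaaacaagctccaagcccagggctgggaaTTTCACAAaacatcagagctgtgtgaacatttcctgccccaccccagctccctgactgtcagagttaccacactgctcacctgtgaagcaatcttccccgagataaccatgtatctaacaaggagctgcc
Il1b: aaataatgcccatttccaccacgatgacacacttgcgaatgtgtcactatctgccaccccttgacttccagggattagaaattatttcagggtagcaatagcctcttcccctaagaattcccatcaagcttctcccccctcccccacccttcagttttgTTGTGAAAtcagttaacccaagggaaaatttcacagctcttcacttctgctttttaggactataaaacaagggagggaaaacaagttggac
Fcgr4: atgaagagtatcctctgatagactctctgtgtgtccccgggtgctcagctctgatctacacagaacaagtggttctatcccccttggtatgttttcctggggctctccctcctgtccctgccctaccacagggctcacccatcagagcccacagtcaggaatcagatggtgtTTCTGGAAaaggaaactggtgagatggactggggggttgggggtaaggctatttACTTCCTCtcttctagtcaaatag
Ifit1: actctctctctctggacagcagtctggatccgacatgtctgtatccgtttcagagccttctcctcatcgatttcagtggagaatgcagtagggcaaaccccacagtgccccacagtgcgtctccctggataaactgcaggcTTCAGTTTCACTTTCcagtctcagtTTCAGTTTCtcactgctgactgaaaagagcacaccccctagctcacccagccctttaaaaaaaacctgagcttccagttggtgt
Myct1: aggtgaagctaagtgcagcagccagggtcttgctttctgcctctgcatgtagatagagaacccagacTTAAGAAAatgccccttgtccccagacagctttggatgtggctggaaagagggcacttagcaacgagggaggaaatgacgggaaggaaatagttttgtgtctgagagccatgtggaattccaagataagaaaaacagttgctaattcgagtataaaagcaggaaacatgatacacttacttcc
Bex1: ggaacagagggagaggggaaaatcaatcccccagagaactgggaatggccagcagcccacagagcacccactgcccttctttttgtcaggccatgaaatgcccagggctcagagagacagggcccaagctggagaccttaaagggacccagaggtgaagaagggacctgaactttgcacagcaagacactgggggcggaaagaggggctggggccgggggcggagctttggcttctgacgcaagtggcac

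A C/EBP match lay in the promoter of 8 of the 10 leading monocyte genes that the table held (Clec4d, Igsf6, Il1b, Lcn2, S100a8, S100a9, Slfn4 and Stfa2l1) and in that of 4 of the 12 leading LT-HSC genes (Ctla2b, Mecom, Myct1 and Tfr2). The pattern is loose: it was in 36.8% of all promoters in the table, 28.7% of those of genes tested, 31.9% of those called higher in monocytes and 27.4% of those called higher in LT-HSC. It was in 68% of the promoters of monocyte marker genes, 60% of those of scavenger and lectin-type receptors, 62.5% of the 8 promoters of endothelial-type genes, 40% of those of stem cell surface genes and 30.8% of those of stem cell transcription factors. The PU.1 pattern was rarer, in 4.18% of promoters called higher in monocytes, 2.25% of those called higher in LT-HSC and 2.68% of those of genes tested. The interferon pattern was in 38.2% of the promoters of interferon response genes against 6.22% of those of genes tested. These shares are descriptions with no test, and a match is not a bound site.

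Many gene lists leaned to one side, while others, such as MHC class I and II, glycolysis and T cell genes, did not. Over all genes tested, 32.7% were called higher in LT-HSC and 20.7% higher in monocytes. Lists of stem cell surface genes, stem cell transcription factors, imprinted genes, ribosome biogenesis and DNA replication had most of their tested members higher in LT-HSC, and those of phagocyte receptors, innate sensors, the NADPH oxidase and the interferon response had most of theirs higher in monocytes.

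**Figure D3:**
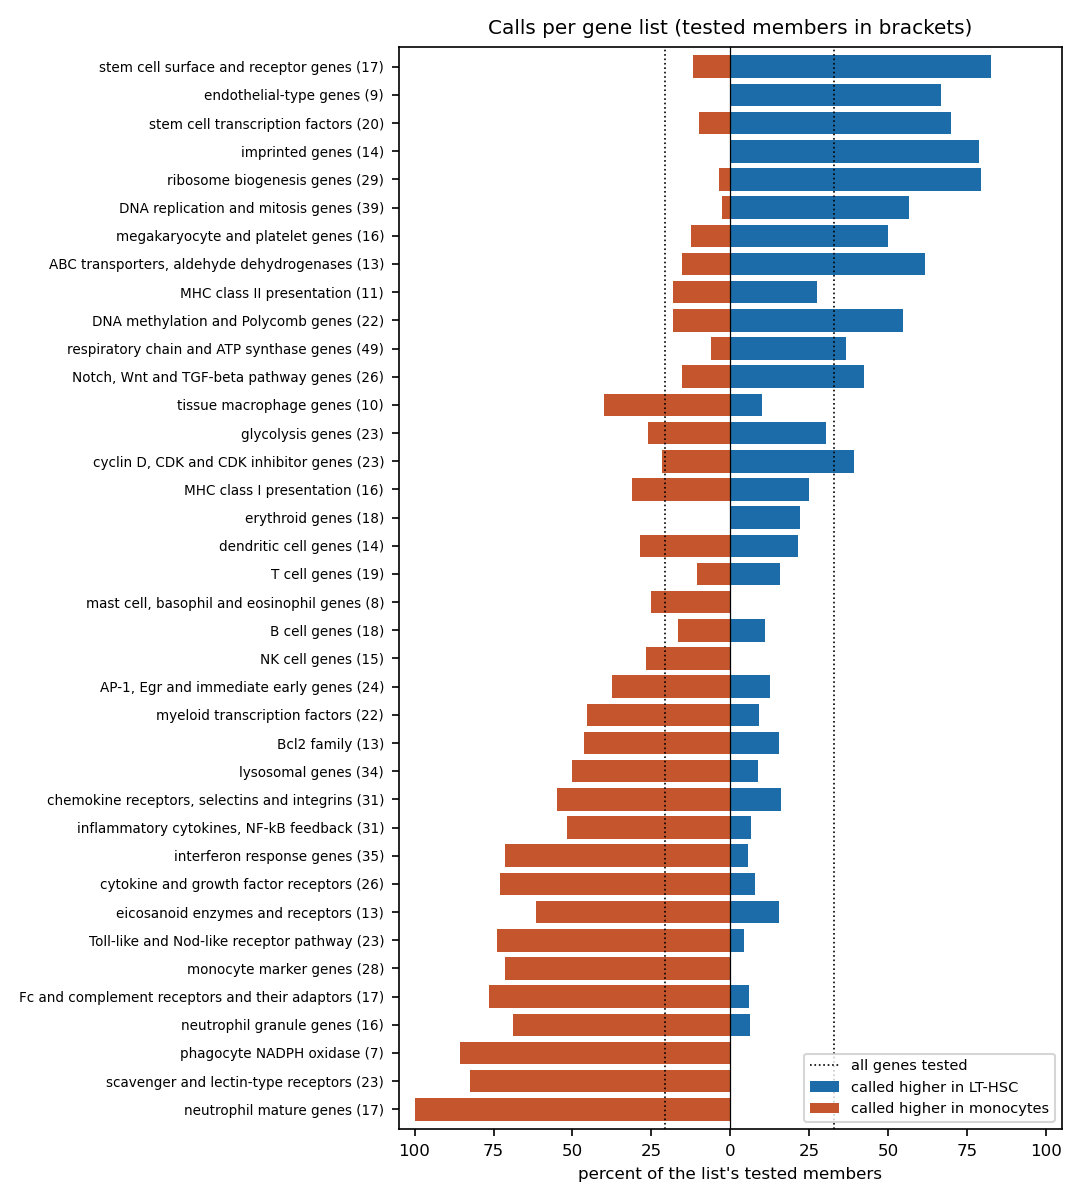
Percent of each gene list's tested members called higher in LT-HSC (blue, to the right) and higher in monocytes (orange, to the left), with the number of tested members in brackets and lists ordered by median difference. Dotted lines mark the shares over all genes tested, 32.7% and 20.7%; the list of mature neutrophil genes reaches 100% on the monocyte side and stem cell surface genes 82.4% on the LT-HSC side.

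Among surface and receptor genes of stem cells, 14 of 17 tested were called higher in LT-HSC and 2 higher in monocytes, with a median difference of 5.02. Procr, the endothelial protein C receptor, read 12.21 and 12.10 in LT-HSC against 3.06 and 2.83 in monocytes. Cd34, a sialomucin that marks multipotent progenitors and is low on many adult mouse LT-HSC, read 11.40 and 11.55 against 2.45 in both monocyte arrays. The LT-HSC arrays were high and the monocyte arrays low for both genes, with no overlap, and both were named for their large differences. Adgrg1 (Gpr56), an adhesion receptor, differed by 8.55 ± 0.21 and Gpr171 by 7.88 ± 0.63. The integrin subunit Itga6, the angiopoietin receptor Tek, Robo4 and the adhesion molecule Esam differed by 4.66 to 5.12. Cd9, a tetraspanin, and Alcam went the other way, by 2.50 ± 0.47 and 2.92 ± 0.40, although another probe set of Alcam differed by 0.07 towards LT-HSC. Thy1 stayed between 2.33 and 2.60 in all 4 arrays.

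Of 20 tested transcription factors of stem cells, 14 were called higher in LT-HSC and 2 higher in monocytes, and the median difference was 4.10. Erg, an ETS factor, read 12.62 and 11.76 against 3.15 and 4.11, and Tal1, the SCL factor that founds the blood lineage, read 11.66 and 11.30 against 4.47 and 5.34. Meis1, the cofactor of Hoxa9, kept signal in monocytes, with 7.24 and 6.10 against 12.96 and 13.28 in LT-HSC. Not every factor of stem cells was lower in monocytes. Runx1, which is used throughout the myeloid lineage, differed by 0.06 ± 0.44 with overlapping arrays (8.52 and 9.92 in monocytes), and Cbfa2t3 differed by -0.22 ± 0.20. Fli1 and Lyl1 were called higher in monocytes by 1.36 and 1.44, but neither call held without LT-HSC array 2 (Fli1 -1.39, adjusted p = 6.57e-02; Lyl1 -0.22, adjusted p = 6.93e-01), and Fli1 was lost without LT-HSC array 1 and both without monocyte array 2. Hoxb4, Hoxa7, Sox17 and Tcf15 were at 2.95 or less in all 4 arrays and were not tested.

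Of 23 genes shared with endothelium that had a probe set, 9 were tested. Of these 9, 6 were called higher in LT-HSC and none higher in monocytes. The 2 LT-HSC arrays alone can carry a gene through the filter, so these counts do not describe the whole list. Ctla2a, a cysteine protease inhibitor, read 15.74 and 15.80 against 6.87 and 7.46, and its relative Ctla2b 14.32 and 14.45 against 4.31 and 3.89. Cdh5, Kdr, Cldn5 and Pecam1 were at 2.47 or less in all 4 arrays. Such values do not show whether these probe sets can detect the genes. Tgm2 and Icam2 overlapped between the groups.

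Megakaryocyte and platelet genes had called members on both sides, 8 of 16 tested higher in LT-HSC and 2 higher in monocytes (median 2.61). Those shares were 50% and 12.5%, against 32.7% and 20.7% of all genes tested. Mmrn1, the platelet protein multimerin, read 12.57 and 12.14 in LT-HSC against 3.23 and 3.19 in monocytes. The chemokine Pf4, the channel gene Trpc6 and Cavin2 were higher in LT-HSC by 4.96, 5.27 and 5.11. Clec1b, a lectin receptor of platelets, and Selp, P-selectin, were higher in monocytes, with Clec1b at 11.58 and 10.91 against 4.57 and 6.94. The platelet glycoproteins Gp9 and Gp5 were at 1.82 or less in all 4 arrays.

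Imprinted genes, which are expressed from 1 parental allele and many of which restrain growth, were called higher in LT-HSC for 11 of 14 tested and higher in monocytes for none, with a median of 3.57. Plagl1 (Zac1), a zinc finger factor, read 10.45 and 11.09 against 2.65 and 2.64, and Grb10, an adaptor that dampens insulin signalling, read 10.46 and 9.33 against 2.68 and 2.67. The noncoding RNA Meg3 read 10.52 and 9.99 against 5.28 and 4.89, and Ppp1r9a 12.86 and 12.92 against 8.89 and 8.02. No array of one group reached the other for these 4 genes, which were named for their large differences. A further 14 imprinted genes, Igf2, Cdkn1c, Dlk1 and Peg10 among them, did not pass the filter for testing. Grb10 had a mean above 5 in LT-HSC and in no other type of the series. Genes of that kind pass the filter only where they are high, so the count and median of tested members do not describe the whole list. When all probe sets of a gene were averaged, 5 members were called higher in LT-HSC instead of 11.

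Of 13 tested ABC transporters and aldehyde dehydrogenases used in dye efflux and enzyme assays of stem cells, 8 were called higher in LT-HSC and 2 higher in monocytes. Abcg2, the pump behind the side population, read 11.37 and 10.12 against 4.03 and 4.10, and Abcb1b, a multidrug pump, differed by 4.56 ± 0.35. Aldh1a1, the main retinaldehyde dehydrogenase, read 9.55 and 7.93 against 2.41 and 2.39. Aldh2, which clears acetaldehyde, did not differ beyond its error (0.10 ± 0.62), and Aldh3b1 was higher in monocytes by 5.28 ± 0.37.

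Notch, Wnt and TGF-beta pathway genes held called members in both directions, 11 of 26 higher in LT-HSC and 4 higher in monocytes, with a median of 0.49. These shares of 42.3% and 15.4% were not far from the 32.7% and 20.7% over all genes tested. Ltbp3, which stores latent TGF-beta in the matrix, read 12.76 and 12.88 in LT-HSC against 5.03 and 4.09, and the Wnt receptors Fzd4 and Fzd6 were higher in LT-HSC by 5.63 and 5.42. Notch1 was higher in monocytes, at 11.78 and 11.44 against 8.58 and 8.43, and so was the BMP receptor Bmpr1a. Without monocyte array 1 the number higher in LT-HSC fell from 11 to 7.

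The lists for proliferation and for growth were on the LT-HSC side although stem cells are known as mostly resting. Of 39 tested genes of DNA replication and mitosis, 22 were called higher in LT-HSC and 1 higher in monocytes, with a median of 2.76. Top2a, the topoisomerase of dividing cells, read 10.43 and 10.41 against 3.24 and 1.47, and Mki67 read 10.03 and 11.94 against 4.71 and 3.34. Rrm1 and Rrm2, the subunits of ribonucleotide reductase, were higher by 6.16 and 7.21, and the replication and methylation factor Uhrf1 by 5.41. Every monocyte array was below both LT-HSC arrays for these 5 genes, which were named for their large differences. The mitotic kinase Plk1 stayed at 2.59 to 2.65 and Gins2 at 3.27 to 3.31, while Kif23, a kinesin of cell division, was higher in monocytes by 2.72 ± 0.40. The list's mean level was 7.16 and 7.77 in LT-HSC, 4.92 and 4.99 in monocytes, and 8.55 and 7.66 in the granulocyte arrays.

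Cyclin and CDK genes had called members on both sides: 9 of 23 were called higher in LT-HSC and 5 higher in monocytes (median 0.12), or 39.1% and 21.7%, near the shares of 32.7% and 20.7% over all genes tested. Ccne1, Cdk4, Ccnd1 and Cdk6, which move cells from G1 into S phase, were higher in LT-HSC by 4.75, 4.37, 3.94 and 3.25. Ccnd1 was weak in LT-HSC, at 6.10 and 5.79, and its other probe sets were at 5 or less in all 4 arrays. Another D cyclin, Ccnd3, named after its values were seen, was called higher in monocytes, at 10.35 and 11.09 against 7.70 and 7.84. Cdkn2d, the CDK inhibitor p19, and E2f2 were higher in monocytes by 3.75 and 4.47. Cdkn2c read 4.25 and 4.84 in LT-HSC and 4.31 and 4.81 in monocytes, and Cdkn1c was not tested, at 2.22 to 2.24 in all 4 arrays.

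Ribosome biogenesis genes had 23 of 29 tested members called higher in LT-HSC and 1 higher in monocytes, with a median of 3.38. Fbl, the fibrillarin that methylates ribosomal RNA, read 11.21 and 10.97 against 3.48 and 6.40, and Gnl3 (nucleostemin) 11.32 and 11.11 against 6.54 and 5.66. Gar1, a protein of the pseudouridine complex, was higher by 5.03 ± 0.41 and Wdr12 by 4.84 ± 0.55, but with the Wdr12 probe set chosen by the 4 arrays alone the difference was 0.70 (adjusted p = 5.13e-02). The lowest LT-HSC array lay above the highest monocyte array for these 4 genes, which were named for their large differences, while Nop2 overlapped. Polr1a, the largest subunit of RNA polymerase I, was called higher in monocytes by 1.53, a call that was lost without LT-HSC array 2 (-0.94, adjusted p = 1.61e-01) and without monocyte array 1 (-1.45, adjusted p = 6.06e-02).

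Energy metabolism differed by gene and not as a block. Of 49 tested genes of the respiratory chain and ATP synthase, 18 were called higher in LT-HSC and 3 higher in monocytes, against 32.7% and 20.7% of all genes, with a median of 0.64. Atp5g1, a ring subunit of ATP synthase, read 6.17 and 6.37 against 2.06 and 1.48, and Ndufa5, of complex I, 11.19 and 11.45 against 7.94 and 8.61. Glycolysis genes had 7 of 23 called higher in LT-HSC and 6 higher in monocytes, and the larger side of this list turned under another setting. The lactate dehydrogenase subunit Ldhb (12.17 and 11.86 against 5.81 and 5.83), the lactate carrier Slc16a1 and Eno2 were higher in LT-HSC, and the transporter Slc2a6 and the phosphofructokinase regulator Pfkfb4 (12.47 and 12.11 against 6.16 and 4.67) were higher in monocytes. Pgk1, phosphoglycerate kinase, read 13.72 and 14.14 against 14.08 and 13.71, with overlapping arrays. Pdk1, the kinase that closes entry to the mitochondrial cycle, was higher in LT-HSC by 2.17 ± 0.42.

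DNA methylation and Polycomb genes had 12 of 22 called higher in LT-HSC and 4 higher in monocytes (median 1.12). Those shares were 54.5% and 18.2%, against 32.7% and 20.7% of all genes tested. Dnmt1, the maintenance methyltransferase, read 11.23 and 12.28 against 4.35 and 7.12, and Dnmt3b 10.96 and 11.25 against 5.77 and 5.76. Dnmt3a, whose loss expands stem cells, differed by 0.36 ± 0.26 and was not called. Phc1 of the Polycomb repressive complex was higher in LT-HSC by 3.85, and the demethylase Kdm6b and the methyl-DNA reader Mbd2 were higher in monocytes by 3.18 and 2.40.

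On the monocyte side, 20 of 28 tested monocyte marker genes were called higher in monocytes and none higher in LT-HSC, with a median difference of 4.95. Fcgr4, an activating antibody receptor whose promoter above held a C/EBP and a PU.1 match, read 11.04 and 11.77 against 1.75 and 1.77, a difference of 9.64 ± 0.22. Chil3, which is also in the neutrophil granule list, read 11.11 and 13.58 against 3.47 and 3.49, the lectin receptor Clec4a3 10.93 and 12.72 against 3.01 and 3.08, and Treml4, a receptor of patrolling monocytes, 10.85 and 11.46 against 2.43 and 2.74. All monocyte arrays were above all LT-HSC arrays for these 4 genes, which were named for their large differences. Cd68, a lysosomal glycoprotein of phagocytes, was higher by 7.46 ± 1.08. Nr4a1, needed for patrolling monocytes, read 13.22 and 12.01 in monocytes and 12.54 and 12.44 in LT-HSC. The list's mean level was 10.16 and 11.07 in monocytes, 5.89 and 6.24 in LT-HSC, and 9.73 and 9.28 in the granulocyte arrays. Cd14, the lipopolysaccharide coreceptor, read 10.24 and 9.22 in monocytes, 6.73 and 1.77 in LT-HSC, and 2.12 and 1.82 in the granulocyte arrays. Adgre1 had granulocyte values of 9.10 and 9.35 against 12.04 and 12.28 in monocytes.

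Myeloid transcription factors had 10 of 22 tested members called higher in monocytes and 2 higher in LT-HSC (median 0.83 towards monocytes). Those shares were 45.5% and 9.09%, against 20.7% and 32.7% of all genes tested. Spi1 (PU.1) read 10.21 and 10.03 in monocytes against 5.36 and 6.36 in LT-HSC, and Cebpd 12.40 and 12.69 against 4.28 and 4.37. Bcl6 and Batf were higher in monocytes by 4.02 and 3.46. Gfi1, a repressor needed both by stem cells and by neutrophils, was higher in LT-HSC, at 8.86 and 8.50 against 5.83 and 5.28. Mef2c read 12.67 and 11.81 in LT-HSC and 6.01 and 9.74 in monocytes, and its call was lost without monocyte array 1 (2.50, adjusted p = 9.19e-02). Irf5 lay between 7.11 and 7.13 in all 4 arrays. Cebpa was not tested, with 4.32 or less in all 4 arrays.

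Receptors by which phagocytes bind their targets formed some of the most one-sided lists. Of 17 tested Fc and complement receptors with their adaptors, 13 were called higher in monocytes and 1 higher in LT-HSC (median 4.99). Fcgr3, the low-affinity antibody receptor, read 14.15 and 14.23 against 3.66 and 3.27, and the kinase Fgr 12.69 and 12.99 against 2.63 and 2.71. Tyrobp (DAP12), the adaptor that signals for many activating receptors, was higher by 9.06 ± 0.78. The exception was Cd93, a receptor also found on early progenitors, with 12.88 and 12.45 in LT-HSC against 4.62 and 7.49 in monocytes. Of 23 scavenger and lectin-type receptors, 19 were called higher in monocytes and none higher in LT-HSC, with a median of 8.30. Trem3 read 13.78 and 13.21 against 3.36 and 3.37, and Clec4e (Mincle), which senses mycobacterial glycolipid, 12.21 and 12.94 against 2.74 and 3.44. Scarb1, which takes up lipoprotein cholesterol, read 8.44 and 11.16 in monocytes and 9.07 and 9.52 in LT-HSC.

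Innate sensors followed, with 17 of 23 tested genes of the Toll-like and Nod-like receptor pathway called higher in monocytes and 1 higher in LT-HSC (median 3.91). Tlr13, a sensor of bacterial ribosomal RNA, read 12.41 and 12.65 against 3.10 and 3.18, and Nlrp12 12.20 and 12.33 against 2.70 and 2.76. Tlr6 and Tlr1, partners of Tlr2 for lipopeptides, were higher in monocytes by 8.73 and 7.03. Tlr3, which senses double-stranded RNA, was the member higher in LT-HSC, at 5.40 and 4.44 against 3.52 and 3.32, but its call was lost in the fit of the 4 arrays alone (adjusted p = 6.44e-02) and with the mean of all its probe sets (0.68), which left no member higher in LT-HSC. The shared signalling genes Irak1 and Traf6 were not called, with Irak1 between 12.16 and 12.87 in all 4 arrays.

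Of 31 tested inflammatory cytokine, chemokine and NF-kB feedback genes, 16 were called higher in monocytes and 2 higher in LT-HSC (median 1.94 towards monocytes). Tnfsf13b (BAFF), a survival factor for B cells, read 9.19 and 9.55 against 1.98 and 2.35, and oncostatin M (Osm) 10.09 and 8.85 against 2.71 and 3.56. Vegfa was higher in LT-HSC by 2.90, a call lost without monocyte array 2 (1.87, adjusted p = 7.75e-02). Il6, Il10, Il12b and Ccl2 were not tested and stayed at 3.43 or less in all 4 arrays. This list divided the monocyte arrays: its mean level was 10.61 in array 1 and 9.08 in array 2, and 16 of the 31 members were over 1 log2 unit higher in array 1 against 2 in array 2. Cxcl3, named after its values were seen, read 13.23 and 5.66 in the monocyte arrays.

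The same division appeared among the AP-1, Egr and other immediate early genes, which respond to stimulation within minutes. Of 24 tested, 9 were called higher in monocytes and 3 higher in LT-HSC, but without monocyte array 1 the counts were 5 and 5. The mean level was 11.22 in monocyte array 1, 9.46 in monocyte array 2, and 9.99 and 10.18 in the LT-HSC arrays, and 11 members were over 1 log2 unit higher in monocyte array 1 against 2 in array 2. Egr1 read 14.42 and 9.74 in monocytes around 11.86 and 12.34 in LT-HSC, and Fosb, named after its values were seen, 11.61 and 2.97. Klf2, a factor of quiescent leukocytes, was high in both monocyte arrays (12.80 and 12.06 against 5.01 and 7.47), as was the phosphatase Dusp1. Nr4a2 and Nr4a3 went strongly the other way, at 14.30 and 14.55 against 7.59 and 4.01 for Nr4a2 and 13.11 and 12.32 against 3.14 and 3.04 for Nr4a3.

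**Figure D4:**
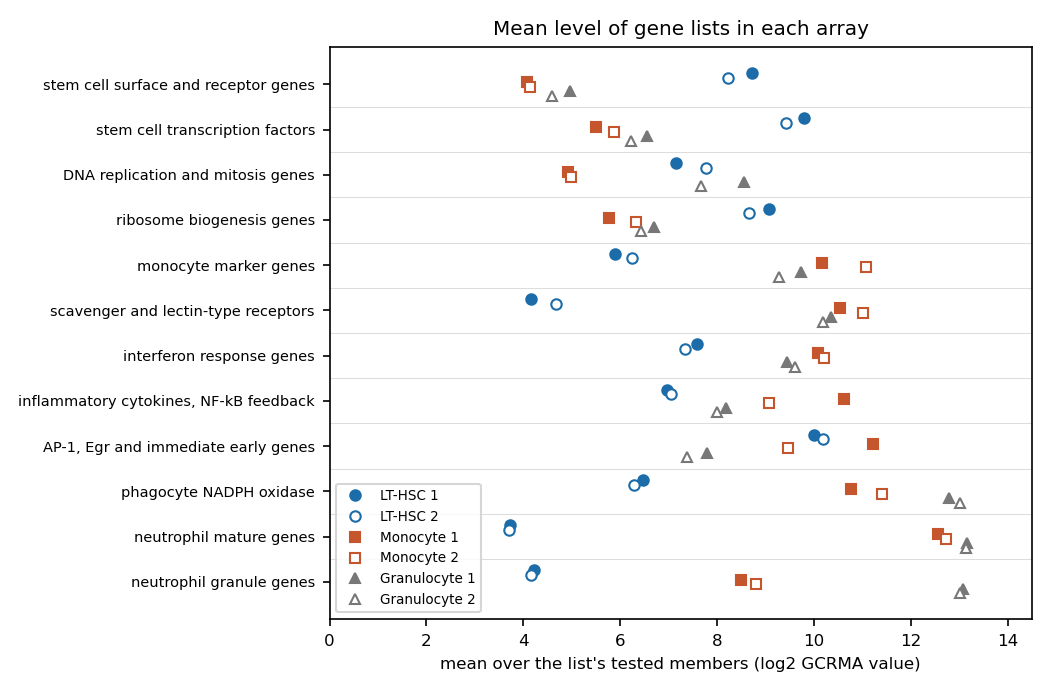
Mean log2 GCRMA value over the tested members of 12 gene lists in each LT-HSC (circles), monocyte (squares) and granulocyte array (triangles), filled for array 1 and open for array 2. The monocyte arrays stand apart from each other on the inflammatory list (10.61 and 9.08) and the immediate early list (11.22 and 9.46), and lie beside the granulocyte arrays for mature neutrophil genes but well below them for neutrophil granule genes.

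Receptors for cytokines and growth factors had 19 of 26 tested members called higher in monocytes and 2 higher in LT-HSC (median 2.79). Il13ra1, a chain of the interleukin-4 and interleukin-13 receptors, read 13.56 and 13.53 against 3.27 and 3.39, and Csf3r, the receptor for granulocyte colony-stimulating factor, 13.71 and 13.50 against 7.01 and 6.83. Lifr was higher in monocytes by 7.19 ± 1.44. Il1r1 and Il6st (gp130) were higher in LT-HSC, with Il1r1 at 6.34 and 5.73 against 2.27 and 2.28. The call for Il6st was lost with the mean of all its probe sets (0.80 instead of 3.30) and in the fit of the 4 arrays alone (adjusted p = 1.15e-01).

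Homing molecules had 17 of 31 tested members called higher in monocytes and 5 higher in LT-HSC (median 1.30 towards monocytes). Those shares were 54.8% and 16.1%, against 20.7% and 32.7% of all genes tested. Ccr1, a receptor for inflammatory chemokines, read 14.86 and 14.92 against 4.11 and 4.34, and S1pr5, the sphingosine phosphate receptor of patrolling monocytes and NK cells, 10.22 and 11.93 against 2.98 and 3.09, with a granulocyte mean of 3.12. The leukocyte integrin chains Itgal and Itgb2 were higher in monocytes by 7.28 and 6.74. The laminin receptor chain Itga6 and Esam were higher in LT-HSC, and so was Vcam1, whose call was lost without LT-HSC array 2 (3.21, adjusted p = 6.04e-02). Itgb3 overlapped, at 8.80 and 9.93 in LT-HSC and 9.63 and 8.97 in monocytes.

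The machinery for killing and digestion was on the monocyte side. Of 7 tested genes of the phagocyte NADPH oxidase, 6 were called higher in monocytes and none higher in LT-HSC (median 5.58). The cytosolic subunits Ncf1 and Ncf4 read 12.16 and 12.06 and 12.59 and 12.37 in monocytes against 5.59 or less in LT-HSC. Cybb, the catalytic subunit, was uneven, at 5.59 and 11.03 in the monocyte arrays against 2.21 and 3.25, and its call was lost in the fit of the 4 arrays alone. Of 34 lysosomal genes, 17 (50%) were called higher in monocytes and 3 (8.82%) higher in LT-HSC, against 20.7% and 32.7% of all genes tested. Their median difference was 1.05 towards monocytes. The lysosomal mannosidase Man2b1 read 13.40 and 13.21 against 9.47 and 9.36 and the sialidase Neu1 8.64 and 6.51 against 2.64 and 2.82. Cathepsin L (Ctsl) and the acid glucosidase Gaa were higher in LT-HSC by 2.37 and 2.88, although another probe set of Ctsl differed by -2.07 and the mean of its probe sets by 0.15. Npc2, a cholesterol carrier, lay between 12.00 and 12.43 in all 4 arrays.

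Eicosanoid genes had 8 of 13 tested members called higher in monocytes and 2 higher in LT-HSC (median 3.37 towards monocytes). Those shares were 61.5% and 15.4%, against 20.7% and 32.7% of all genes tested. Alox5, which starts leukotriene synthesis, read 12.21 and 11.01 against 2.43 and 2.47, and Pla2g7, which breaks down platelet-activating factor, 10.74 and 11.69 against 2.52 and 2.55. The prostaglandin E2 receptors parted: Ptger2 was higher in monocytes by 6.21 ± 0.53, and Ptger4 was higher in LT-HSC by 1.11 ± 0.29, at 12.16 and 12.21 against 10.70 and 11.45. The call for Ptger4 was lost without monocyte array 1 (0.74, adjusted p = 6.34e-02).

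Interferon response genes had 25 of 35 tested members called higher in monocytes and 2 higher in LT-HSC, with a median of 2.74 towards monocytes. Ifi204 read 11.58 and 11.85 against 3.92 and 4.21, and Usp18, a brake on interferon signalling, 10.09 and 9.57 against 3.42 and 2.75. Ifit1, whose promoter is shown above, was higher by 8.18 ± 1.41 and Oas2 by 5.54 ± 0.39. The immunity-related GTPase Ifi47 and the guanylate-binding protein Gbp3 were higher in LT-HSC by 1.87 and 1.76, although Gbp3 lost its call without LT-HSC array 1 (1.48, adjusted p = 6.75e-02) and Ifi47 in the fit of the 4 arrays alone (adjusted p = 5.43e-02). Stat2 lay between 4.09 and 4.16 in all 4 arrays. The monocyte arrays were close on this list, with means of 10.08 and 10.21 against 7.59 and 7.34 in LT-HSC.

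Antigen presentation did not separate the groups as a block. MHC class II genes had 3 of 11 (27.3%) called higher in LT-HSC and 2 (18.2%) higher in monocytes. MHC class I genes had 4 of 16 (25%) and 5 of 16 (31.2%). The shares over all genes tested were 32.7% and 20.7%, and the larger side of both lists turned under other settings. Cd80, a costimulator, was higher in monocytes at 9.20 and 8.07 against 2.65 and 2.73, and Erap1, the peptide trimmer, was higher in LT-HSC at 9.19 and 8.49 against 3.80 and 3.79. The immunoproteasome subunit Psmb9 was higher in monocytes by 2.22 ± 0.28, and H2-Oa was higher in LT-HSC by 3.21 ± 0.63. H2-Eb1 overlapped between the groups (-0.01 ± 0.67), and B2m, the light chain of MHC class I, lay between 14.87 and 15.12 in all 4 arrays.

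In the Bcl2 family, 6 of 13 tested genes were called higher in monocytes and 2 higher in LT-HSC (median 1.03 towards monocytes). Those shares were 46.2% and 15.4%, against 20.7% and 32.7% of all genes tested. Called members on the monocyte side included Pmaip1, Bid and Bmf, which promote cell death, and Bcl2l1 (Bcl-xL), which protects from it. Levels were as follows: Pmaip1 (Noxa) read 12.28 and 12.91 against 6.76 and 6.96, Bid 11.81 and 11.51 against 6.74 and 6.27, and Bmf 12.86 and 12.02 against 7.67 and 8.47. Bcl2l1, named after its values were seen, was higher in monocytes by 1.16 ± 0.25. Bcl2l2 (Bcl-w), which also protects from death, was higher in LT-HSC by 2.63 ± 0.46. Bcl2l11 (Bim) was higher in monocytes by 1.97, but another probe set of the gene differed by 0.49 towards LT-HSC.

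Markers of other blood cells were mixed, and several genes that define those cells were low in all 4 arrays. The shares over all genes tested were 32.7% higher in LT-HSC and 20.7% higher in monocytes. T cell, NK cell, B cell and erythroid genes lay under these shares, except NK cell genes on the monocyte side (26.7%). T cell genes had 3 of 19 called higher in LT-HSC and 2 higher in monocytes, with list means of 3.47 to 3.66 over the 4 arrays. Among NK cell genes, 4 of 15 were called higher in monocytes and none in LT-HSC: Gzma read 9.23 and 8.89 against 3.25 in both LT-HSC arrays, and Klrd1 7.36 and 7.43 against 3.96 and 3.18, while Ncr1 and Prf1 were at 2.29 or less. Among B cell genes, 3 of 18 were called higher in monocytes and 2 higher in LT-HSC, and the larger side of the list turned under another setting. The B cell gene Cd79a was at 2.55 or less in all 4 arrays, but Bank1 read 11.46 and 10.50 in monocytes against 8.24 and 8.54, the tetraspanin Cd37 10.41 and 9.66 against 6.68 in both LT-HSC arrays, and Ralgps2 8.76 and 8.74 in LT-HSC against 2.00 and 6.82. The call for Ralgps2 was lost without monocyte array 1 (1.93, adjusted p = 5.51e-02). Among erythroid genes, 4 of 18 were called higher in LT-HSC and none in monocytes: Car2, a carbonic anhydrase, read 12.55 and 11.98 against 3.83 and 3.48, and the transferrin receptor Tfrc, used by all dividing cells, 12.76 and 12.28 against 9.60 and 8.26, while Klf1, Alas2 and Hba-a1 were at 2.59 or less.

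Dendritic cell genes had 4 of 14 called higher in monocytes and 3 higher in LT-HSC, a balance that also turned. Those shares were 28.6% and 21.4%, against 20.7% and 32.7% of all genes tested. Itgax (CD11c) read 9.41 and 8.85 in monocytes against 2.01 and 3.28, and the transcription factor Tcf4 11.88 and 11.39 in LT-HSC against 7.42 and 8.94. Tissue macrophage genes had 4 of 10 called higher in monocytes and 1 higher in LT-HSC. The iron exporter Slc40a1 read 13.99 and 13.89 in monocytes against 7.21 and 8.02, and the prostaglandin dehydrogenase Hpgd 7.04 and 11.35 against 3.15 and 3.18. C1qa, C1qc, Mertk and Marco were at 3.26 or less in all 4 arrays and were not tested. The series held no macrophage arrays to show that these probe sets can detect them. C1qb, named after its values were seen, read 7.37 and 10.71 in LT-HSC and 7.44 and 7.06 in monocytes, and the macrophage list's mean there was 4.65 in array 1 and 5.84 in array 2. Among mast cell, basophil and eosinophil genes, 2 of 8 were called higher in monocytes: Siglecf read 11.24 and 10.68 against 3.48 and 3.67, and the histidine decarboxylase Hdc, which is also in the mature neutrophil list, 14.66 and 13.90 against 6.76 and 3.81, while Epx, Prg2 and Cma1 were at 2.56 or less. The part of such cells in the differences between the groups was not tested.

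Genes that were on in one group and off in the other were set against the 8 remaining cell types of the series. By a rule of both arrays at 8 or more against both at 4 or less, 148 genes were on in LT-HSC and off in monocytes, and 140 were on in monocytes and off in LT-HSC. Of the 148, 49 had a mean above 5 in none of the other 8 types, 45 in 1 to 3, 37 in 4 to 7 and 17 in all 8. Mecom, Myct1, Mmrn1, Cd34, Fgd5, Adgrg1 and Grb10 were among the 49, while Top2a, Rrm2, Myb, Ppa1, Slc16a1 and Erap1 were among the 17, whose low value was thus that of the monocyte arrays. Of the 140 on in monocytes, 6 were above 5 in none of the other types and 133 were above 5 in granulocytes. Granulocytes were the type that held most of the 140 (95%) and fewest of the 148 (20.3%), against 76.7% of all genes tested.

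**Figure D5:**
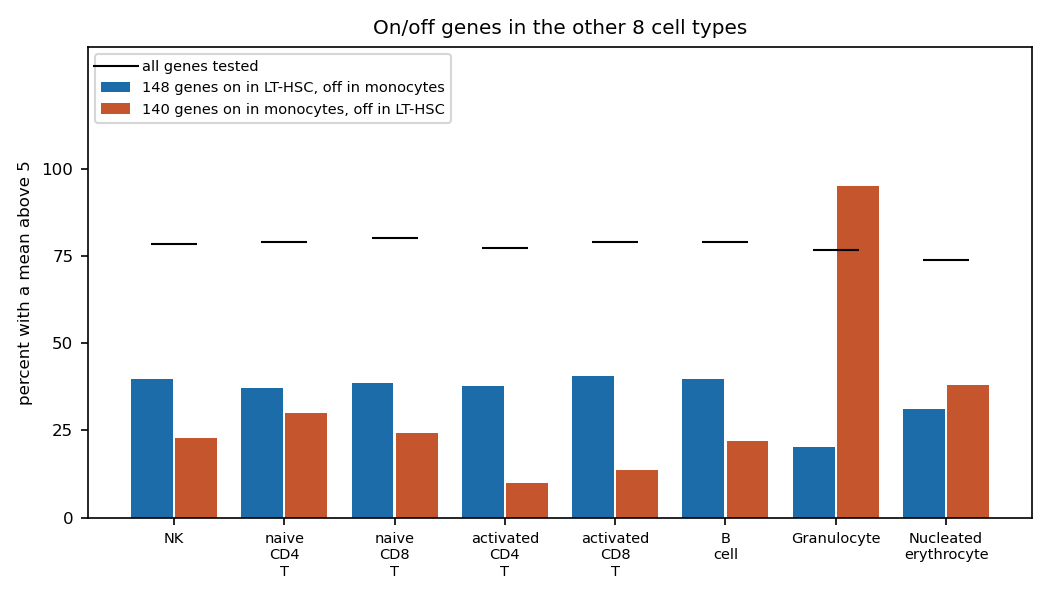
Percent of the 148 genes on in LT-HSC and off in monocytes (blue) and of the 140 genes on in monocytes and off in LT-HSC (orange) whose mean lies above 5 in each of the other 8 cell types, with black lines for all genes tested. Granulocytes reach 95% of the orange set, and no other type exceeds 37.9% of it.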

How the data were processed

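Expression was measured on 20 Affymetrix Mouse430_2 arrays, and the 4 arrays of LT-HSC and monocytes were grouped by their titles. The authors deposited log2 values made with GCRMA, per the submitters' processing notes; for its version and settings the sources used here say nothing. Background correction by GCRMA places weak probe sets at low values, so differences against a value under 5 depend on that correction.

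Of 45101 probe sets, 34945 named 1 gene, 932 named several and 9160 were not listed in the annotation used, which may be old; each of 18193 genes was given by the probe set that was highest on average across the 20 arrays. Genes with at least 2 arrays above 5 were tested with limma 3.58.1 (R 4.3.3; lmFit and eBayes) over all 20 arrays with 1 mean per cell type, which left 10 residual degrees of freedom, and p-values were adjusted by Benjamini-Hochberg over 9810 genes. The fit was tested on simulated data. A call needed both an adjusted p below 0.05 and a 2-fold change. Gene lists were described by counts and medians with no test.

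Genes named in the text were the 12 largest called differences in each direction with arrays at least 1 apart, passing over unnamed transcripts, receptor segments and the Klra family; per list up to 4 called members with the list's median, 2 against it and 2 not called; and the label markers. Further list members are given as low or untested, or are marked as named after their values were seen. The lists and the comparison were chosen with earlier results of these data known. Alternatives were the arrays in the fit, the replicate block, normalization, array weights, filters, the probe set rule, the variance model, the call rule and leaving out each array.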

Additional observations from a re-analysis of the deposited data

How the results depend on the processing

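Under 17 alternative settings, 163 of the 209 named genes that were called kept their call and 46 lost it under at least 1 setting, most often Cd74 and Bcl11b (11 settings each). Tcf7l2, not called with all arrays, was called higher in LT-HSC without monocyte array 2 (1.14) and higher in monocytes without monocyte array 1 (-1.18). The count higher in LT-HSC ranged from 2821 to 3261 and that higher in monocytes from 1749 to 2002 when 1 array was left out. A test against a log2 difference of 1 gave 2074 and 1228. With only the 4 arrays the counts were 2316 and 1508. The deviations of same-numbered LT-HSC and monocyte arrays correlated at -0.074, within a range of -0.256 to 0.213 over the 45 pairs of groups. With 2 arrays a group this cannot show whether the replicate numbers pair the samples. With the replicate block the counts were 3200 and 2020 over all 20 arrays, and 1781 and 1180 in the fit of only the 4 arrays. The larger side turned for 5 of 38 lists under some setting (MHC class I and II, glycolysis, B cell and dendritic cell genes). Of 205 other probe sets of called named genes, 108 were at 5 or less in all 4 arrays, 87 agreed in direction by at least 1, 7 by less and 3 were opposite.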

Other observations

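Genes outside the lists, named after their values were seen, filled out the on and off sets. Among the 49 genes on in LT-HSC and above 5 in none of the 8 other types were the matrix metalloprotease gene Mmp2, the cytoskeletal linker Dst, the guanylate cyclase subunit Gucy1a1, the kinase Prkg1, the vesicular monoamine transporter Slc18a2 and the noncoding RNA Firre, with differences of 7.41 to 8.73. The 6 genes on in monocytes alone among the 10 types were Gpr35, Ttc30a2, Pdzd3, Ccdc146, Piwil2 and Amz1, with differences of 4.90 to 8.11, and S1pr5 was the seventh of the 140 without signal above 5 in granulocytes. Genes on in monocytes and in all 8 other types, and off in LT-HSC, were Ighm, Cmah, Ifi209, Usp18 and Cd82. A further 29 probe sets without a single gene name were on in LT-HSC and off in monocytes, and 27 the reverse.

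Control probe sets at both ends of 2 transcripts gave the following values. The 3′ probe set of Actb read 10.88 and 10.59 in LT-HSC and 13.54 and 13 in monocytes, and its 5′ probe set 3.46 and 3.44 against 5.59 and 5.78. For Gapdh the 3′ probe set read 13.70 and 13.75 against 14.30 and 14.15 and the 5′ probe set 4.75 and 4.02 against 4.08 and 6.00.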
